A study of Mus musculus with 8 samples.

Results

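The genes described here are 40 genes of the lysosome and of autophagy, taken by symbol from the 24421 rows of a gene count table. They fall into 9 hydrolases of the lysosome lumen, 2 lumenal cofactors, 5 lysosomal membrane proteins, 4 subunits of the proton pump, the 3 transcription factors of the TFEB family, and 17 genes of autophagy. The cells were KPCY cells, a mouse pancreatic cancer cell line recorded as male. One stable line carried a lentiviral inhibitor of the microRNA miR-27a-3p ("knockdown", 4 libraries) and the other a lentiviral scrambled control ("scrambled", 4 libraries). Both lines had been kept in puromycin at 2 µg/mL for 7 days, were grown in medium with 4.5 g/L glucose and 10% serum, and gave RNA 24 h after seeding. Each group is 1 stable line, so its 4 libraries measure the spread between cultures or preparations of that line, and the inhibitor cannot be told apart from other differences between the lines.

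The lysosome is the acidic compartment in which a cell breaks down proteins, lipids and sugars. Its hydrolases need the low pH that a proton pump, the V-ATPase, maintains, and its membrane proteins shield the rest of the cell and move ions and products across. Autophagy wraps parts of the cytoplasm in a double membrane and delivers them to the lysosome: a kinase complex starts the membrane, 2 conjugation systems attach ATG8 proteins to it, and receptors bring in cargo. TFEB, TFE3 and MITF are transcription factors that enter the nucleus when nutrients are short and bind the CLEAR element in promoters of these genes. Pancreatic ductal cancers are known for high autophagy and lysosome activity.

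The inhibited microRNA is encoded on chromosome 8 (GRCm38, chr8:84208727-84208747, plus strand) and has a close relative, miR-27b-3p, on chromosome 13 (chr13:63300760-63300780, plus strand). Both mature sequences, from RefSeq, are shown because they share the seed that pairs with target mRNAs, bases 2 to 8, in capitals.
mmu-miR-27a-3p: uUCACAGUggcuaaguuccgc
mmu-miR-27b-3p: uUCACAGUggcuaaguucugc
Counts of messenger RNA do not measure a mature microRNA, and the rows for the precursors Mir27a and Mir27b held 0 counts in every library except for 1 count of Mir27a in knockdown replicate 2. The strength of the inhibition was therefore not checked here.

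Totals per library ran from 19165513 to 23542275 counts. Levels below are CPM, the usual depth-scaled counts with each library total multiplied by its TMM factor, listed in the order of replicates 1 to 4. Fold changes are knockdown over scrambled on the log2 scale, and a gene is "called" at an adjusted p under 0.05 in edgeR (quasi-likelihood test, Benjamini-Hochberg adjusted over 11797 tested genes). Scrambled replicate 2 stood apart: its chi-square per gene against the other scrambled libraries was 5.03 to 5.20, where the other pairs within a group gave 1.72 to 2.31. Epithelial cancer markers summed to 11583 to 11908 CPM in the knockdown libraries and 10892 to 11860 CPM in the scrambled ones, all 9 detected. Krt7, Krt8, Krt18 and Krt19 carried most of the sum, and Epcam averaged 5.62 CPM in the knockdown and 7.15 CPM in the scrambled libraries. Of the 9 markers 4 were called higher and 3 lower (77.8% called, against 47.9% of all tested genes). Fibroblast markers summed to 0.725 to 1.38 CPM and 0.943 to 1.41 CPM, with 4 of 7 at 0. Of the macrophage list (128 to 148 and 131 to 147 CPM), Adgre1 and Lyz2 were at 0 in every library, and Cd14 and Mrc1 carried nearly all of the sum. Endothelial markers summed to at most 1.03 CPM and acinar markers to at most 3.98 CPM in any library. In bulk RNA, fewer cells of a type and less RNA per cell cannot be told apart.

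Of the 40 genes, 39 had enough counts to be tested. In the knockdown line 14 rose, 15 fell and 10 were not called, so 74.4% were called. The background was high: 47.9% of all tested genes were called, 23.8% higher and 24.1% lower, and 50.9% of the 9884 genes averaging 5 CPM or more. The changes were small. In absolute size the log2 fold changes of those called ran from 0.08 to 0.51, and the median size over the 39 genes was 0.15, against 0.13 over all tested genes. The signed median was −0.01, against 0.00 over all tested genes. Groups of libraries did not overlap for 14 genes on the higher side and 13 on the lower side, against 21.0% and 21.1% of all tested genes (42.2% together). In edgeR's test of a change beyond 1.2-fold, Ulk1, Cln3, Neu1 and Lamp1 passed upward and 0 downward (1 downward at an unadjusted p under 0.05), against 4.95% and 4.43% of all tested genes (9.38% together). DESeq2 and limma-voom, with no such minimum fold, called 13 and 15 of the genes lower. Summed over the 40 genes, the level was 4734 ± 9.87 CPM in the knockdown and 4753 ± 59.2 CPM in the scrambled libraries (SD, n = 4 each), and the groups overlapped. The plot of fold changes shows the genes by role.

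**Figure D1:**
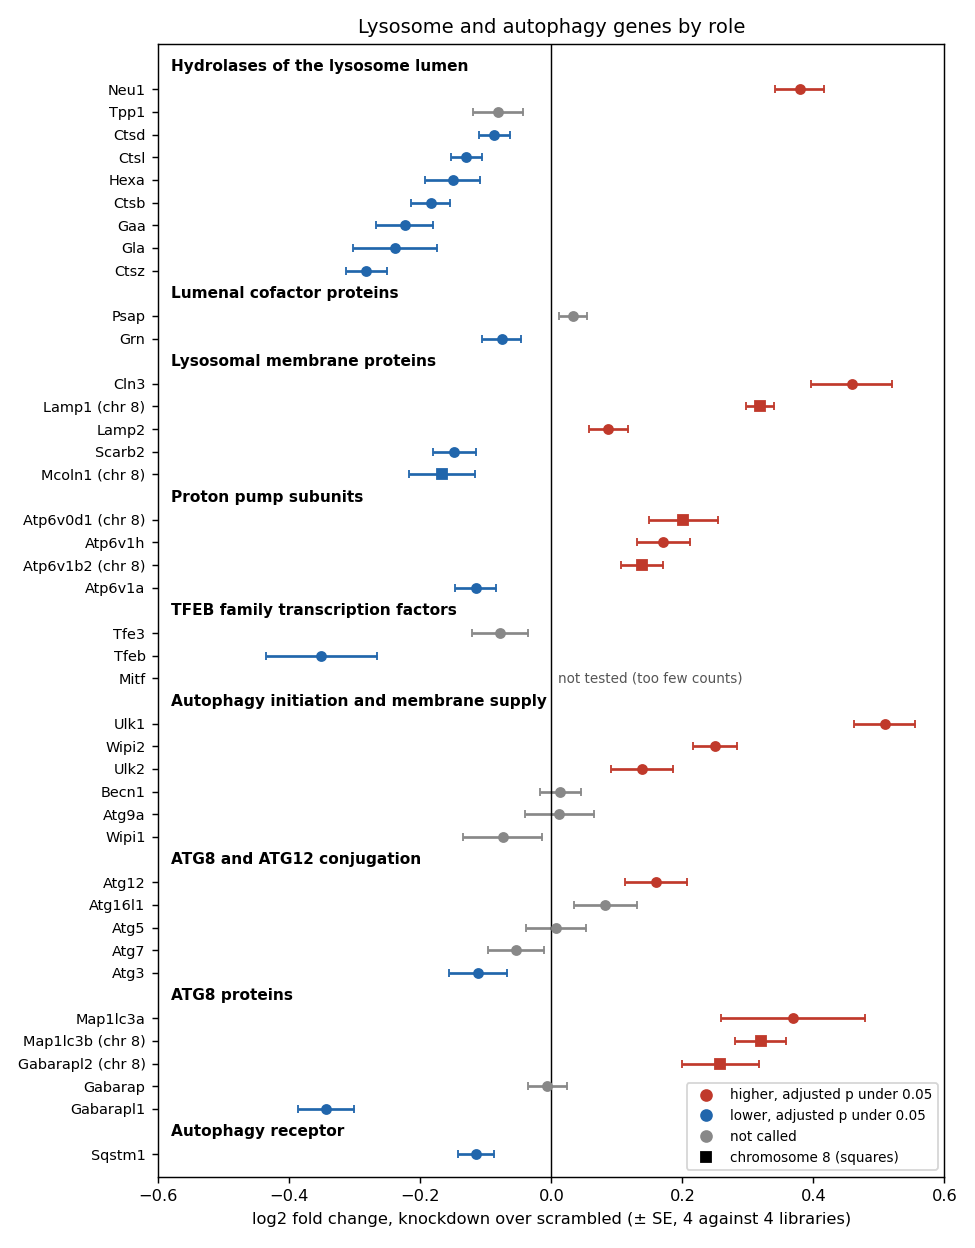
Log2 fold change (knockdown over scrambled, horizontal axis) of the 39 tested genes, grouped by role, with bars for 1 SE (Mitf is listed as not tested); red and blue points were called higher and lower, grey points were not called, and squares mark genes on chromosome 8. The 9 lumenal hydrolases lie left of 0 except Neu1, and Ulk1 lies farthest right at 0.51.

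Among the lumenal hydrolases 7 of 9 fell, 1 rose and 1 was not called (88.9% called), with a median log2 fold change of −0.15. Over all tested genes 24.1% fell, 23.8% rose and 47.9% were called. The summed level of the 9 hydrolases was 1755 ± 11.2 CPM in the knockdown (1744 to 1765) and 1893 ± 56.5 CPM in the scrambled libraries (1811 to 1937), without overlap. Cathepsin Z (Ctsz, a carboxypeptidase, GRCm38 chr2:174427493-174439039) stood at 148, 148, 138 and 141 CPM in the scrambled libraries and 119, 119, 119 and 115 CPM in the knockdown libraries. All 4 knockdown libraries lay below all 4 scrambled ones, a 1.22-fold lower level (log2 fold change −0.28, SE 0.0308, adjusted p = 1.04e-07). Cathepsin B (Ctsb, a cysteine protease, chr14:63122462-63145923) was at 458, 405, 439 and 438 CPM in the scrambled libraries and 388, 388, 386 and 369.6 CPM in the knockdown libraries. Here too the groups did not overlap (log2 fold change −0.18, SE 0.0299, adjusted p = 2.46e-05), and scrambled replicate 2 came nearest to the knockdown libraries. Ctsb shares 774 of its 6051 exon bases with Fdft1 on the opposite strand, and Fdft1 itself fell (log2 fold change −0.38). Whether counting used the strand is not given in the sources used here, and what Fdft1 reads add to Ctsb was not tested.

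Cathepsin D (Ctsd, the main aspartic protease of the lysosome) stood at 484, 465, 497 and 475 CPM in the scrambled libraries and 456, 446, 461 and 447 CPM in the knockdown libraries. The difference was small, but the groups did not overlap (log2 fold change −0.09, SE 0.0240, adjusted p = 0.00466). Ctsd shares 808 of its 2351 exon bases with Gm49369 on the same strand, and how such reads were assigned is not given. Alpha-galactosidase (Gla), which trims galactose from glycolipids, was at 24.8, 21.6, 21.98 and 23.2 CPM in the scrambled libraries and 20.6, 18.2, 18.4 and 20.3 CPM in the knockdown libraries. Its highest knockdown library stayed below its lowest scrambled library (log2 fold change −0.24, SE 0.0641, adjusted p = 0.0039). The other hydrolases that fell were cathepsin L (Ctsl, −0.13), acid alpha-glucosidase (Gaa, which degrades glycogen, −0.22) and the alpha subunit of hexosaminidase (Hexa, −0.15). Their adjusted p in edgeR's test were 8.82e-05, 0.000228 and 0.00501. Ctsl shares 1742 of its 6489 exon bases with Gm47123 on the opposite strand and 395 with the pseudogene Gm49230 on the same strand. The tripeptidyl peptidase Tpp1 was not called (107 ± 1.48 against 113 ± 7.73 CPM, log2 fold change −0.08, adjusted p = 0.0872); without scrambled replicate 2 it was called lower (log2 fold change −0.13, adjusted p = 0.000499).

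Neuraminidase 1 (Neu1), which removes sialic acid from glycoproteins, was the exception. It stood at 118, 100.5, 111 and 113 CPM in the scrambled libraries and 145, 140.4, 143 and 147 CPM in the knockdown libraries (gene at chr17:34931253-34935953). All knockdown libraries lay above all scrambled ones, a 1.30-fold rise (log2 fold change 0.38, SE 0.0369, adjusted p = 1.85e-08). Of the lumenal cofactors, prosaposin (Psap), the precursor of the saposins that help sphingolipid hydrolases, was not called (527 ± 9.91 against 515 ± 5.94 CPM, log2 fold change 0.03, adjusted p = 0.221). Granulin precursor (Grn) was at 145, 143, 142 and 138 CPM in the scrambled libraries and 139.6, 133, 129.7 and 137 CPM in the knockdown libraries. It was called lower with overlapping groups (log2 fold change −0.08, SE 0.0298, adjusted p = 0.0413), and 8 of the alternatives ended that call (adjusted p 0.0688 to 0.179).

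**Figure D2:**
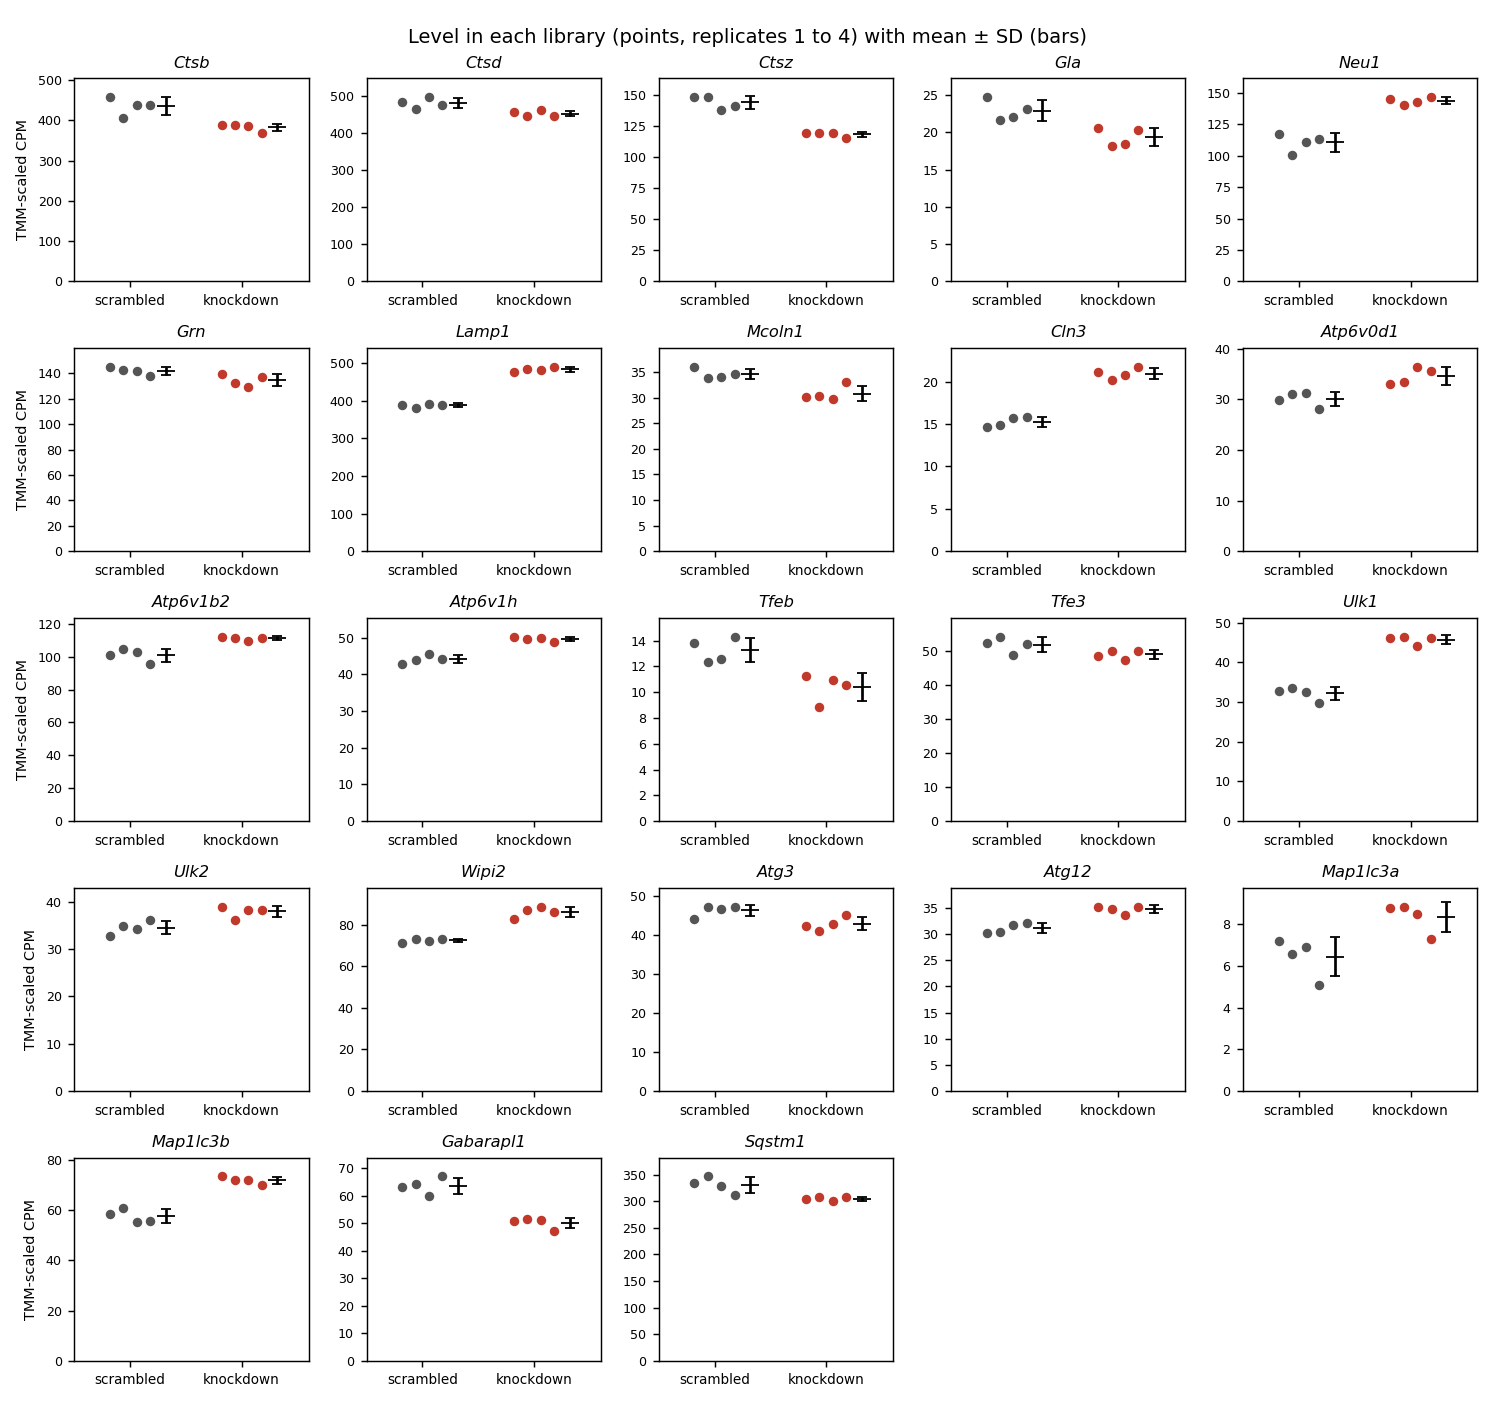
Level (TMM-scaled CPM, vertical axis from 0) of 23 genes in each library: grey points are the scrambled and red points the knockdown libraries in the order of replicates 1 to 4, and black bars are the mean and SD of 4. The groups do not overlap for Neu1, Lamp1, Cln3, Ulk1 and Map1lc3b (higher) or Ctsz, Tfeb and Gabarapl1 (lower), and they do for Grn, Tfe3 and Atg3.

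All 5 membrane proteins of the lysosome were called, 3 higher and 2 lower, against 47.9% of all tested genes (23.8% higher and 24.1% lower). Their summed level was 786 ± 9.78 CPM in the knockdown and 688 ± 9.37 CPM in the scrambled libraries, with no overlap, and Lamp1 accounted for most of that difference. Lamp1, the most abundant structural glycoprotein of the lysosomal membrane (chr8:13159161-13175338), stood at 389, 379, 391 and 389 CPM in the scrambled libraries and 476, 483, 482 and 489.7 CPM in the knockdown libraries. The groups were far apart relative to their spread, a 1.25-fold rise (log2 fold change 0.32, SE 0.0218, adjusted p = 5.57e-11). Cln3, the membrane protein lost in juvenile Batten disease (chr7:126571207-126585817), was at 14.6, 14.9, 15.7 and 15.8 CPM in the scrambled libraries and 21.1, 20.1, 20.7 and 21.7 CPM in the knockdown libraries. Every knockdown library was above every scrambled one, a 1.37-fold rise (log2 fold change 0.46, SE 0.0619, adjusted p = 2.23e-06). Cln3 shares 442 of its 5781 exon bases with Apobr on the opposite strand, whose own log2 fold change was 0.19 (adjusted p = 0.0553).

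Lamp2, needed for fusion of autophagosomes with lysosomes, also rose (165 ± 2.99 against 155 ± 6.05 CPM, log2 fold change 0.09, adjusted p = 0.02), but lost the call without scrambled replicate 2 (adjusted p = 0.0503), without knockdown replicate 2 (0.0622) and without knockdown replicate 4 (0.0503). Mcoln1, the calcium channel through which lysosomes signal to TFEB, moved the other way, at 36.01, 33.8, 34.1 and 34.5 CPM in the scrambled libraries and 30.03, 30.2, 29.8 and 33.04 CPM in the knockdown libraries. The highest knockdown library, replicate 4, came within 1 CPM of the lowest scrambled library, without overlap (log2 fold change −0.17, SE 0.0501, adjusted p = 0.00864). Scarb2, the receptor that carries glucocerebrosidase to the lysosome, fell as well (86.7 ± 1.08 against 96.1 ± 3.55 CPM, log2 fold change −0.15, adjusted p = 0.000826).

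Of the 4 proton pump subunits in the set, 3 rose and 1 fell, all by less than 1.2-fold. All 4 were thus called, against 47.9% of all tested genes. The membrane-side subunit Atp6v0d1 stood at 29.9, 31.1, 31.2 and 28.2 CPM in the scrambled libraries and 32.9, 33.3, 36.4 and 35.7 CPM in the knockdown libraries. Knockdown libraries were all higher (log2 fold change 0.20, SE 0.0524, adjusted p = 0.00301). The regulatory subunit Atp6v1h was at 42.9, 43.8, 45.5 and 44.1 CPM in the scrambled libraries and 50.3, 49.5, 49.9 and 48.9 CPM in the knockdown libraries, again without overlap (log2 fold change 0.17, SE 0.0402, adjusted p = 0.00127). Atp6v1b2, a subunit of the ATP-hydrolysing head, was at 101, 105, 103 and 95.5 CPM in the scrambled libraries and 112, 112, 109.5 and 111 CPM in the knockdown libraries. Its groups did not overlap (log2 fold change 0.14, SE 0.0320, adjusted p = 0.00105), whereas the catalytic subunit Atp6v1a fell (128 ± 2.55 against 138 ± 5.89 CPM, log2 fold change −0.12, adjusted p = 0.00452). The 4 subunits together came to 323 ± 2.88 CPM in the knockdown and 313 ± 6.03 CPM in the scrambled libraries.

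In the TFEB family, Tfeb fell, Tfe3 was not called and Mitf was too low to test. Tfeb (chr17:47737030-47792419) stood at 13.8, 12.4, 12.6 and 14.3 CPM in the scrambled libraries and 11.3, 8.85, 10.97 and 10.5 CPM in the knockdown libraries. All knockdown libraries were below all scrambled ones, 1.28-fold lower (log2 fold change −0.35, SE 0.0849, adjusted p = 0.00164). Tfe3, the more abundant family member, was at 52.3, 54.3, 48.9 and 52.03 CPM in the scrambled libraries and 48.5, 50.1, 47.6 and 50.2 CPM in the knockdown libraries. The groups overlapped (log2 fold change −0.08, SE 0.0423, adjusted p = 0.134). Mitf had 0, 4, 0 and 2 counts in the scrambled libraries and 2, 2, 1 and 5 counts in the knockdown libraries, close to the 3 counts that a zero allows, and no fold is given. Per kilobase of annotated exon, Tfe3 reached 5.60 CPM in the scrambled libraries and Tfeb 2.34 CPM, the lowest of the 39 tested genes.

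Genes that start autophagy and supply its membrane were called in 3 of 6 cases (50%), all higher, against 47.9% of all tested genes (23.8% higher). Their summed level was 337 ± 2.41 CPM in the knockdown and 306 ± 4.36 CPM in the scrambled libraries, with no overlap. Ulk1, the kinase that starts autophagosome formation (chr5:110784488-110810097), stood at 32.8, 33.5, 32.5 and 29.8 CPM in the scrambled libraries and 46.2, 46.5, 44.1 and 46.2 CPM in the knockdown libraries. This 1.42-fold rise had the largest absolute log2 fold change of the 39 tested genes (log2 fold change 0.51, SE 0.0468, adjusted p = 7.67e-09), and no knockdown library came near a scrambled one. Wipi2, which binds the lipid PI3P on the growing membrane and recruits the conjugation machinery, was at 71.5, 73.1, 72.3 and 73.00 CPM in the scrambled libraries and 82.8, 87.3, 88.8 and 85.95 CPM in the knockdown libraries. It rose without overlap (log2 fold change 0.25, SE 0.0337, adjusted p = 2.15e-06). Ulk1 and Wipi2 lie on chromosome 5, where 49.9% of tested genes were called higher. Ulk2, the paralogue of Ulk1, was at 32.9, 34.8, 34.3 and 36.1 CPM in the scrambled libraries and 39.04, 36.2, 38.3 and 38.3 CPM in the knockdown libraries. The lowest knockdown library stood just above the highest scrambled one (log2 fold change 0.14, SE 0.0472, adjusted p = 0.0195), and the call was lost without knockdown replicate 1 (adjusted p = 0.0581) and without scrambled replicate 1 (0.0633). Becn1, a subunit of the PI3-kinase complex, Atg9a, the lipid scramblase of seed vesicles, and Wipi1 were not called, with log2 fold changes of 0.01, 0.01 and −0.07 and adjusted p of 0.738, 0.867 and 0.327. Becn1 shares 3104 of its 7065 exon bases with Cntd1 on the opposite strand, which was below 1 CPM. Atg9a shares 1832 of its 5762 exon bases with Gm29253 on the same strand, and how such reads were assigned is not given.

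Of the 5 conjugation genes 1 rose, 1 fell and 3 were not called (40% called, against 47.9% of all tested genes). Their summed level was 201 ± 3.24 CPM in the knockdown and 201 ± 1.55 CPM in the scrambled libraries. Atg12, the ubiquitin-like protein that is joined to ATG5, stood at 30.2, 30.3, 31.7 and 32.1 CPM in the scrambled libraries and 35.3, 34.7, 33.6 and 35.3 CPM in the knockdown libraries. It was higher in every knockdown library (log2 fold change 0.16, SE 0.0474, adjusted p = 0.00798). Atg3, the enzyme that hands ATG8 proteins to lipid, was at 44.1, 47.3, 46.7 and 47.1 CPM in the scrambled libraries and 42.4, 41.1, 42.8 and 45.1 CPM in the knockdown libraries. It was called lower, but its groups overlapped (log2 fold change −0.11, SE 0.0440, adjusted p = 0.0408), and 11 of the alternatives ended the call. Atg5, Atg7 and Atg16l1 were not called, with log2 fold changes of 0.01, −0.05 and 0.08 (adjusted p = 0.918, 0.306 and 0.166 in edgeR's test).

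The ATG8 proteins, which coat the autophagosome membrane, split by member: 3 rose, 1 fell and 1 was not called. This is 80% called, against 47.9% of all tested genes. Map1lc3b (LC3B, the usual marker of autophagosomes) stood at 58.6, 60.9, 55.2 and 55.7 CPM in the scrambled libraries and 73.4, 71.9, 71.97 and 70.05 CPM in the knockdown libraries. All knockdown libraries were higher, 1.25-fold on the fitted scale (log2 fold change 0.32, SE 0.0389, adjusted p = 5.06e-07). Map1lc3b shares 58 of its 7517 exon bases with Zcchc14 on the opposite strand, which was also called higher (log2 fold change 0.31). Map1lc3a was low, at 7.18, 6.59, 6.90 and 5.10 CPM in the scrambled libraries and 8.80, 8.85, 8.47 and 7.29 CPM in the knockdown libraries. Knockdown replicate 4 was just above the highest scrambled library, so the groups did not overlap (log2 fold change 0.37, SE 0.109, adjusted p = 0.0079). Gabarapl1 went the other way, at 63.1, 64.4, 60.00 and 66.98 CPM in the scrambled libraries and 50.7, 51.4, 51.1 and 47.3 CPM in the knockdown libraries. Every knockdown library was lower, by 1.27-fold (log2 fold change −0.34, SE 0.0426, adjusted p = 6.58e-07). Gabarapl1 shares 570 exon bases with 1700101I11Rik on the opposite strand. Gabarapl2 rose (25.1 ± 1.48 against 20.9 ± 0.504 CPM, log2 fold change 0.26, adjusted p = 0.000849), but 3 processed pseudogenes, Gm3724, Gm5829 and Gm6051, match 349 to 352 bases of its transcript at 96.6% to 99.4% identity, so its count is uncertain. Gabarap was not called (150.4 ± 5.08 against 151 ± 3.78 CPM, log2 fold change −0.01, adjusted p = 0.884). The summed level of the 5 ATG8 genes was 306 ± 9.33 CPM in the knockdown and 299.5 ± 1.48 CPM in the scrambled libraries, with overlap.

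Sqstm1 (p62), the receptor that binds ubiquitinated cargo to ATG8 proteins and is itself degraded by autophagy, stood at 334, 346, 328 and 311 CPM in the scrambled libraries and 304, 307, 299.8 and 307 CPM in the knockdown libraries. The knockdown libraries were all lower and scrambled replicate 4 came nearest to them (log2 fold change −0.12, SE 0.0278, adjusted p = 0.00157). Sqstm1 shares 580 exon bases with Mrnip on the opposite strand. These are RNA levels, and autophagic flux was not measured.

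In levels per kilobase of exon, the set spans a wide range. In the scrambled libraries Ctsd (204 CPM per kb), Psap (188), Lamp1 (145), Ctsz (99.9) and Sqstm1 (98.3) led, and Cln3 (2.63) and Tfeb (2.34) came last. In the knockdown libraries Ctsd was at 192, Psap at 192, Lamp1 at 180.4, Sqstm1 at 90.7 and Ctsz at 82.1 CPM per kb, so that Sqstm1 stood above Ctsz there.

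**Figure D3:**
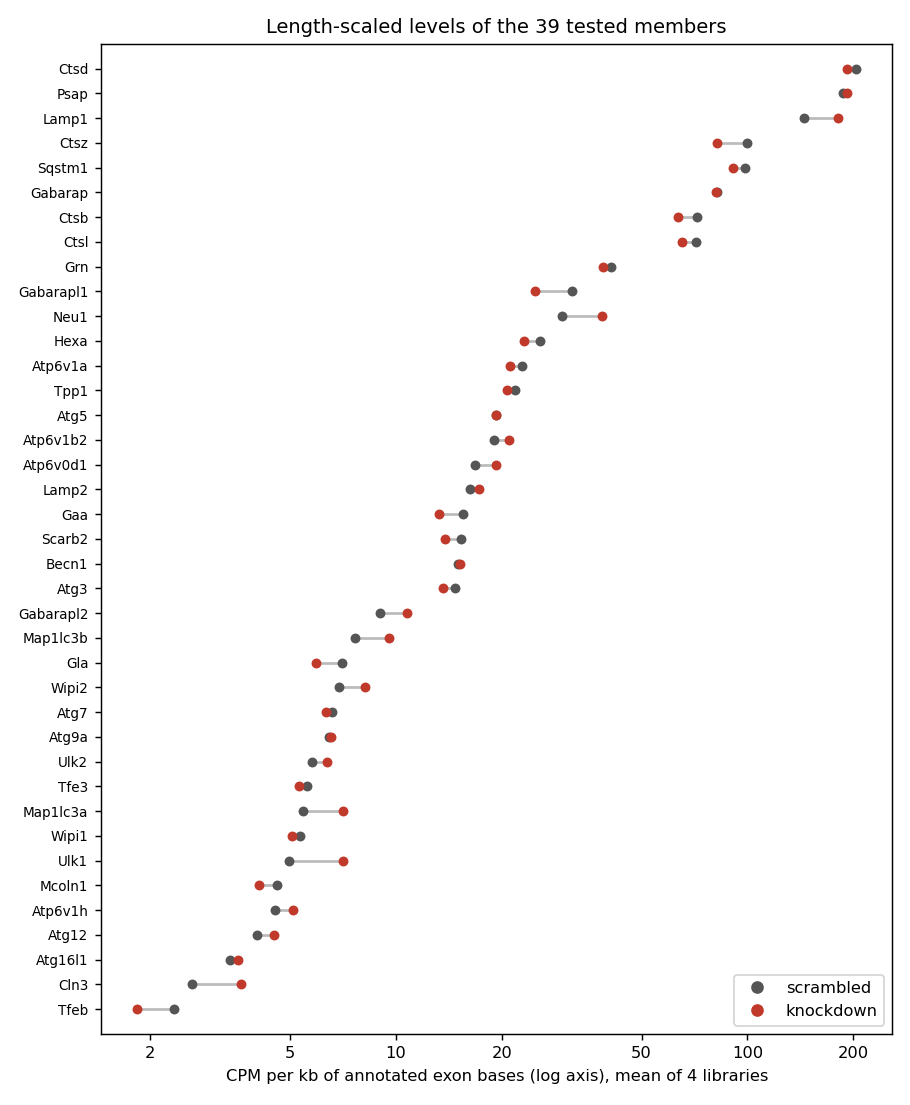
Mean level of the 39 tested genes per kilobase of annotated exon (horizontal log axis, CPM per kb) in the scrambled (grey) and knockdown (red) libraries, joined by a line for each gene and ordered by the scrambled level. Ctsd is at the top at 204 and Tfeb at the bottom at 2.34 in the scrambled libraries, and the gap between the points is small against the range between genes.

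The fold changes were also read against the chromosome each gene lies on. Across the 648 tested genes of chromosome 8 the median log2 fold change was 0.21, and 62.5% were called higher and 5.40% lower. The chromosome took 4.28% to 4.29% of all counts in the knockdown libraries and 3.69% to 3.72% in the scrambled ones. It carries 6 of the 39 tested genes, and 5 of them rose: Lamp1, Atp6v0d1, Atp6v1b2, Map1lc3b and Gabarapl2. Relative to the chromosome's median, the log2 fold change was 0.11 for Lamp1, 0.11 for Map1lc3b, 0.05 for Gabarapl2, −0.0054 for Atp6v0d1 and −0.07 for Atp6v1b2. Mcoln1, the gene of chromosome 8 that fell, lay 0.37 below that median. A difference of the chromosome between the 2 lines and an effect of the inhibitor on these genes cannot be told apart.

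On the other chromosomes 9 of the 33 tested genes rose and 14 fell (69.7% called), with a median of −0.07. Over all tested genes, those of chromosome 8 included, 23.8% were called higher and 24.1% lower. Ulk1 lay 0.37 and Wipi2 0.11 above the median of chromosome 5 (0.14). Cln3 lay 0.52 above that of chromosome 7 (−0.06), and Neu1 0.37 above that of chromosome 17 (0.01). Tfeb, also on chromosome 17, lay 0.36 below it. Called genes whose sign was opposite to the median of their chromosome were Ctsz, Ctsl, Lamp2, Scarb2, Mcoln1, Cln3, Tfeb, Ulk2 and Atg12.

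**Figure D4:**
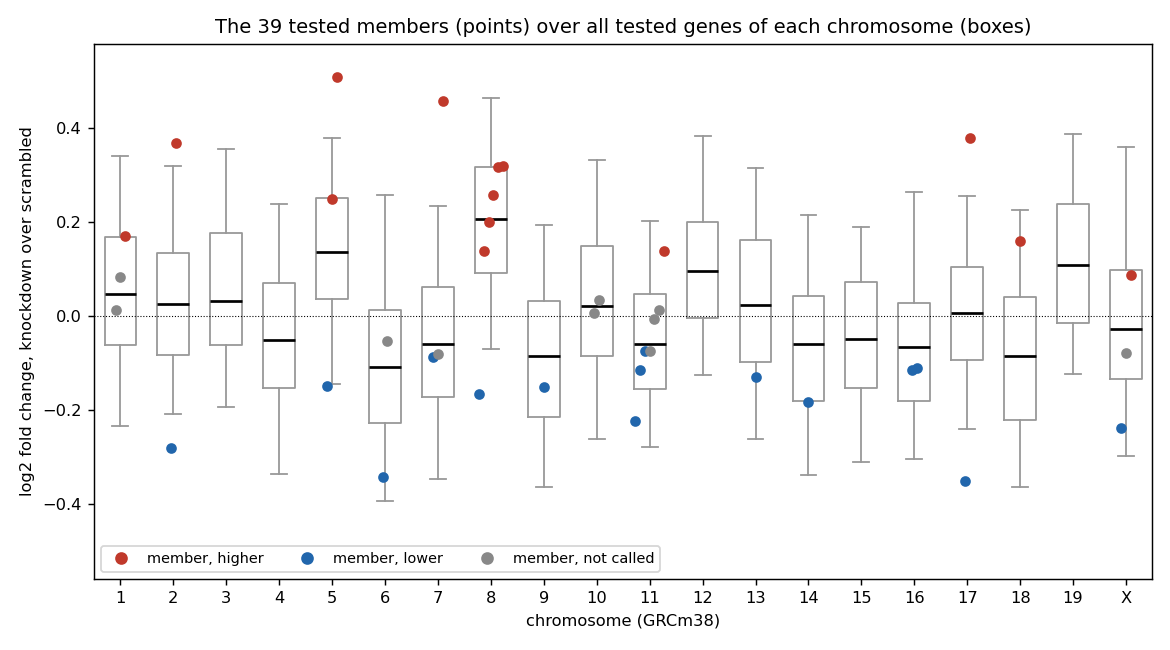
Log2 fold change (vertical axis) of the 39 tested genes as points, red for higher, blue for lower and grey for not called, over boxes of all tested genes on each chromosome (line, median; box, quartiles; whiskers, 10th to 90th percentile). The box of chromosome 8 lies wholly above 0 with a median of 0.21, and 5 of its 6 points lie within the whiskers on the higher side while Mcoln1 lies below them.

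Genes of the same pathways outside the 40 were read alongside. Of 155 such genes 146 were tested: 43 rose and 29 fell, 49.3% called, close to the 47.9% of all tested genes, with a median of 0.04. Among 37 other hydrolases and lumen proteins 15 rose and 8 fell (62.2% called), with a median of 0.08. Of the 9 hydrolases above 1 rose and 7 fell. The difference between the lists was not tested. Man2b1, Galns, Asah1 and Pla2g15, which rose, lie on chromosome 8, and the 9 hydrolases lie elsewhere. Of the 8 pathway genes outside the 40 on chromosome 8, 6 rose and 0 fell. Tmem175, Wdfy3, Lamtor4 and Rheb, named below, lie on chromosome 5, where 49.9% of tested genes were called higher. Cathepsin C (Ctsc, which activates serine proteases) fell most among those with at least 5 CPM (165 ± 1.45 against 267 ± 12.7 CPM, log2 fold change −0.69, adjusted p = 1.11e-14). Tartrate-resistant acid phosphatase (Acp5) fell too (log2 fold change −0.42, adjusted p = 0.000147), whereas legumain (Lgmn, log2 fold change 0.35, adjusted p = 1.24e-07) and the sulfatase Galns on chromosome 8 (log2 fold change 0.34, adjusted p = 5e-05) rose.

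Of 15 other tested subunits and accessory proteins of the pump 0 rose and 4 fell in edgeR's test, with a median of −0.04. This is 26.7% called, against 47.9% of all tested genes. Of the 4 subunits above 3 rose and 1 fell. Among those that rose, Atp6v0d1 and Atp6v1b2 lie on chromosome 8, and the 15 lie on other chromosomes. The difference between the lists was not tested. At an unadjusted p under 0.05, 1 of the 15 was higher, and DESeq2 and limma-voom called 0 higher. Without scrambled replicate 2, edgeR called 1 higher and 3 lower. The accessory protein Atp6ap2 fell most among those at 5 CPM or more (98.9 ± 2.94 against 122 ± 3.64 CPM, log2 fold change −0.30, adjusted p = 8.44e-08), followed by Atp6v0b (log2 fold change −0.15, adjusted p = 0.00226). Atp6v0c, the proteolipid that forms the rotor of every pump, was nearly absent from the table (0.0899 ± 0.0650 against 0.0354 ± 0.0238 CPM) and was not tested. Of 19 other lysosomal membrane proteins 7 rose and 2 fell (median 0.09, 47.4% called, close to the share of all tested genes). The transporter Mfsd8 (log2 fold change 0.51, adjusted p = 0.00105) and the ion channel Tmem175 (log2 fold change 0.48, adjusted p = 0.000112) were among those that rose. The tetraspanin Cd63 (log2 fold change −0.12, adjusted p = 0.000585) and Laptm4b (log2 fold change −0.10, adjusted p = 0.0471) fell.

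Many hydrolases reach the lysosome through a mannose 6-phosphate tag and its receptors. Of 9 sorting genes 4 rose and 2 fell (66.7% called, against 47.9% of all tested genes), although their median was −0.06. The sorting receptor Sort1 (log2 fold change 0.37, adjusted p = 0.000739) and the mannose 6-phosphate receptor Igf2r (log2 fold change 0.28, adjusted p = 0.00139) rose. The other mannose 6-phosphate receptor, M6pr (log2 fold change −0.11, adjusted p = 0.0018), and the tagging enzyme Gnptab (log2 fold change −0.08, adjusted p = 0.0267) fell.

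Of 27 other autophagy core genes 10 rose and 2 fell (44.4% called, against 47.9% of all tested genes), with a median of 0.10. The ATG8 protease Atg4c (log2 fold change 0.52, adjusted p = 0.000504) and Zfyve1, which marks the site of autophagosome formation (log2 fold change 0.48, adjusted p = 1.87e-05), rose most, and Tmem41b (log2 fold change −0.18, adjusted p = 0.00202) and the SNARE protein Snap29 (log2 fold change −0.12, adjusted p = 0.0458) fell. Among 14 other receptors 3 rose and 4 fell (50% called, close to the share of all tested genes). Calcoco1, a receptor for endoplasmic reticulum (32.6 ± 1.95 against 21.1 ± 1.75 CPM, log2 fold change 0.63, adjusted p = 2.58e-08), rose, as did Wdfy3, an adaptor for aggregates (log2 fold change 0.32, adjusted p = 1.2e-07). Bnip3, a receptor for mitochondria, stood at 7.91, 8.91, 11.8 and 16.7 CPM in the scrambled libraries and 5.63, 4.87, 6.28 and 6.43 CPM in the knockdown libraries. It fell without overlap, from scrambled levels that themselves varied widely (log2 fold change −0.97, SE 0.170, adjusted p = 6.36e-05), and optineurin (Optn) fell as well (log2 fold change −0.24, adjusted p = 0.000192).

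Of 25 genes that pass nutrient signals to TFEB through mTORC1, AMPK and calcineurin, 4 rose and 7 fell, with a median of −0.04. This is 44.0% called, close to the 47.9% of all tested genes. The Ragulator subunit Lamtor4 (log2 fold change 0.32, adjusted p = 0.00105) and the mTORC1 activator Rheb (log2 fold change 0.18, adjusted p = 0.00019) rose. Ppp3cb, a catalytic subunit of calcineurin, the phosphatase that frees TFEB to enter the nucleus, fell (88.7 ± 1.82 against 109 ± 5.54 CPM, log2 fold change −0.29, adjusted p = 4.89e-07), as did Prkaa2, a catalytic subunit of AMPK (log2 fold change −0.29, adjusted p = 0.00332).

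**Figure D5:**
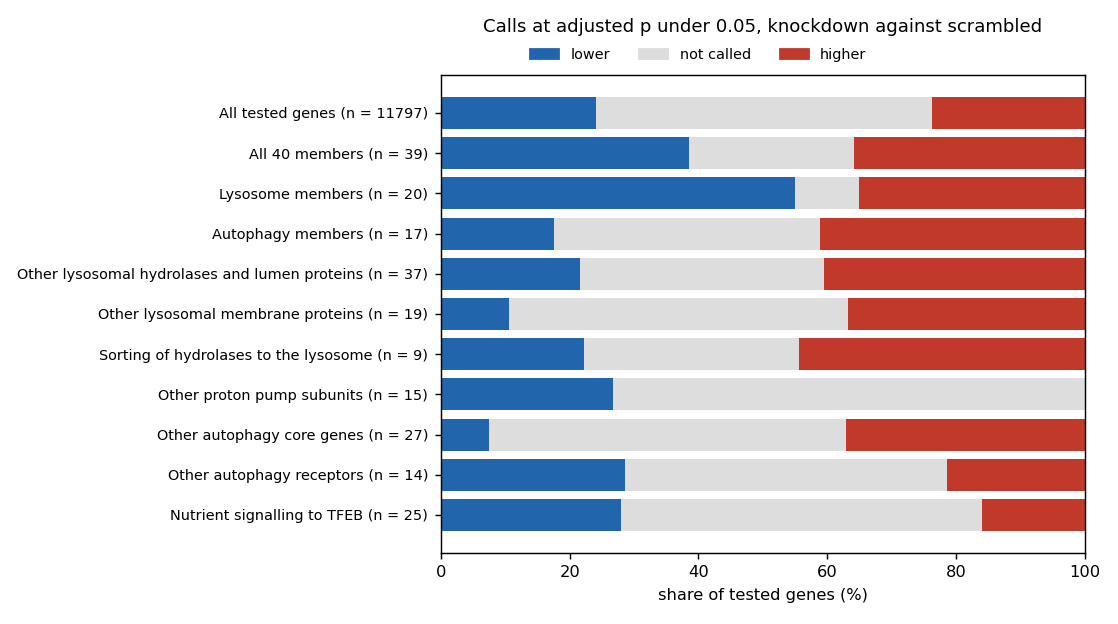
Share of tested genes (horizontal axis, percent) called lower (blue), not called (grey) or called higher (red) among all tested genes, the 40 genes, their lysosome and autophagy genes, and the 7 pathway lists outside the set. Of the 20 lysosome genes of the set 11 are blue and 7 red (90% called, against 47.9% of all tested genes). Other hydrolases, membrane proteins and autophagy core genes show more red than blue.

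Promoters of the set were searched for the CLEAR element. RefSeq promoters (GRCm38.p6, 250 bases before to 50 after the start of each gene) were found for 33 of the 40 genes; Ctsb, Atp6v1b2, Atp6v1h, Becn1, Atg12, Atg16l1 and Map1lc3a had no entry. The motifs searched were CACGTG, TCACGTGA and the latter with G before and C after it, which are nested and read the same on both strands. The longest was found in 1 of the 33 (3.03%), against 0.370% of 27025 genes with a promoter entry, whether tested here or not. TCACGTGA was found in 7 (21.2%), against 1.12%, and CACGTG in 12 (36.4%), against 8.09%. Among 126 pathway genes outside the set TCACGTGA was in 9 (7.14%) and CACGTG in 28 (22.2%). The 7 genes with TCACGTGA are shown, together with Lamp1, because CLEAR is the element that TFEB family factors bind. The motif is in capitals, and each window is written on the strand of the gene.
Cln3 (chr7:126583340-126583369, minus strand): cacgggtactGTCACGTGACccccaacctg
Atp6v0d1 (chr8:105566050-105566079, minus strand): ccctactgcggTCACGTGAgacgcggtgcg
Mcoln1 (chr8:3500462-3500491, plus strand): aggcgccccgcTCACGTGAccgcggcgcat
Ctsd (chr7:142387908-142387937, minus strand): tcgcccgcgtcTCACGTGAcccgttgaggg
Gla (chrX:134601182-134601211, minus strand): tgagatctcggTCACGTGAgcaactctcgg
Gla (chrX:134601215-134601244, minus strand): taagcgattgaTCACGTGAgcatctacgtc
Atp6v1a (chr16:44139373-44139402, minus strand): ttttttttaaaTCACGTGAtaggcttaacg
Atg3 (chr16:45158746-45158775, plus strand): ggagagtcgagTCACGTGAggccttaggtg
Lamp1 (chr8:13159088-13159117, plus strand): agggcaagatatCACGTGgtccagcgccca
Lamp1 (chr8:13159121-13159150, plus strand): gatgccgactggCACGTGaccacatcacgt
The promoter of Lamp1 held 4 copies of CACGTG, with centres 12 to 58 bases before the start. Of the 7 genes with TCACGTGA, Cln3 and Atp6v0d1 rose and Mcoln1, Ctsd, Gla, Atp6v1a and Atg3 fell. Of 215 tested genes with that motif 28.8% were called higher and 19.1% lower. A match is a description of these letters and not a measured binding site.

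Sites for the miR-27 seed were counted in the longest annotated 3′ untranslated region of each gene. The letters searched were ACTGTGAA (8 bases), and ACTGTGA or CTGTGAA (7 bases), on the strand of the mRNA. Such a site was present in 12 of the 40 genes (30%), against 26.1% of the 21037 genes with such a region. The site of 8 bases was present in 1 of the 40 (2.50%), against 5.92%. Those 21037 genes include genes not tested here, so the shares compare unlike sets. Sites of called genes are shown on the mRNA strand, with the match in capitals. For Wipi2, which has 2 sites, both are shown, and Atg12 also has one.
Cln3 (chr7:126572035-126572042, minus strand): tacataagcccACTGTGAAagatatatgta
Wipi2 (chr5:142666980-142666986, plus strand): tcctgacCTGTGAActctggcccag
Wipi2 (chr5:142667746-142667752, plus strand): ccccatccataACTGTGActtggcttttt
Ulk2 (chr11:61775840-61775846, minus strand): gttgaaactgcACTGTGActctcaagctc
Map1lc3b (chr8:121591827-121591833, plus strand): aattcccatccCTGTGAAggcattgctgc
Ctsz (chr2:174427843-174427849, minus strand): tggaagcagcgCTGTGAAccatgacaggg
Ctsl (chr13:64361015-64361021, minus strand): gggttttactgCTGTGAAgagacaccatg
Atp6v1a (chr16:44087416-44087422, minus strand): aACTGTGAtttcttccctc
The coordinates are those of the match. That of Map1lc3b lies nearer the start than the end of the gene (chr8:121590361-121598760). Whether its other transcripts hold the site was not examined. Of the 11 tested genes with a site, 5 rose (Cln3, Wipi2, Ulk2, Map1lc3b and Atg12) and 3 fell (Ctsz, Ctsl and Atp6v1a). Among the 28 without one, 9 rose and 12 fell. Over all 3358 tested genes with a site 26.1% were called higher and 24.3% lower, against 23.3% and 24.9% of the 8015 without. Neu1, Lamp1 and Ulk1 have no such site in that region.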

How the data were processed

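The authors deposited a table of raw counts per gene symbol for 8 libraries of stranded, paired-end poly(A) RNA-seq (reads of 59 bases, RNA integrity number at least 7, per the labels' protocols). The submitters' processing notes name bcl2fastq 2.20, Bowtie, STAR, DESeq2 1.36.0, R 4.2.1 and the mm10 build without roles. How reads were counted, on which annotation and whether by strand, is not given in the sources used here.

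Counts were tested with edgeR 4.0.16 in R 4.3.3 (filterByExpr with a minimum count of 10 and a total of 15, TMM scaling, quasi-likelihood test, Benjamini-Hochberg adjustment over 11797 genes). All 8 libraries entered 1 fit of 2 groups. CPM used library totals times TMM factors (0.991 to 0.992 in the scrambled and 1.01 in the knockdown libraries); this scaling, the motif TCACGTGA, the 5 CPM background and the search for overlapping genes and copies were chosen after seeing values. The depth, 19165513 to 23542275 counts, gave 105 or more counts per library for each gene tested among the 40. The fit was tested on simulated data of 11740 genes, with 100 changed 1.2-fold and 100 changed 1.5-fold. There 8.57% of calls were false, more than the nominal share, and 72% and 88% of the changed genes were recovered. Far fewer genes were changed there than were called here, so the false share among the calls here may differ.

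Gene positions, exon lengths and untranslated regions came from GENCODE M21 (GRCm38): 23358 of 24421 symbols matched as current names and 645 as older ones. Of the 40 genes 12 share exon bases with another protein-coding gene. Values by library are given for the TFEB family, Lamp1, Ctsd, Ctsb, Sqstm1 and Map1lc3b, and in each role for up to 3 called genes with the largest change; from each further list up to 2 called genes per direction with at least 5 CPM were named. The 40 genes and the lists were chosen with earlier results of these data known. Alternatives were other scalings (library totals, upper quartile, DESeq2 size factors, TMM without chromosome 8 and the start of chromosome 5), no filter or a filter of 1 CPM in 4 libraries, DESeq2 1.42.0, limma-voom 3.58.1, a replicate block, a test beyond 1.2-fold, centring on chromosome medians, and leaving out each library.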

Additional observations from a re-analysis of the deposited data

Results flagged for a closer look

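In 8 of 78 groups of 4 libraries, 1 library lay apart from the other 3 by more than Dixon's 95% limit for the gap as a share of the range; chance gives about 1 in 20. In the knockdown group, replicate 4 was the library apart for 5 genes: Ctsb at 369.6 CPM (others 386 to 388), Ctsl at 434 CPM (others 418.2 to 418.5), Ctsz at 115 CPM (others 119.3 to 119.4), Mcoln1 at 33.0 CPM (others 29.8 to 30.2) and Gabarapl1 at 47.3 CPM (others 50.7 to 51.4). Knockdown replicate 2 stood apart for Scarb2 at 88.3 CPM (others 86.0 to 86.4) and knockdown replicate 3 for Ulk1 at 44.1 CPM (others 46.2 to 46.5). Scrambled replicate 2 stood apart for Lamp1 at 379 CPM (others 389 to 391). All 8 genes kept their call and direction when any 1 library was left out.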

How the results depend on the processing

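Of the 29 called genes, 25 kept the call under every alternative with a test except that beyond 1.2-fold, which called 4 higher and 0 lower among the 40 and 1107 of all tested genes. Elsewhere 13 to 15 of the 40 were called higher and 13 to 15 lower; leaving out 1 library gave 13 to 14 and 13 to 15. Same-numbered libraries did not deviate together (correlations −0.0571 to −0.0208), so the numbers do not pair them; with a replicate block 14 were higher and 15 lower, and 5533 of all tested genes were called. The median log2 fold change of the 39 genes was 0.0196 with library totals, 0.0130 with upper-quartile scaling, 0.0024 with TMM without chromosome 8 and the start of chromosome 5, and −0.0222 to 0.0033 with 1 library left out; library totals moved the median of all genes from 0.0017 to 0.0274. Atg3 and Grn were lost in 11 and 8 alternatives (adjusted p 0.0538 to 0.126 and 0.0688 to 0.179), and Psap was called with library totals (adjusted p = 0.0291). Under the alternatives with a test, signs reversed for 3 uncalled genes. With 1 library left out, Atg9a ran from −0.0207 to 0.0439, Atg5 from −0.0208 to 0.0406 and Gabarap from −0.0222 to 0.0169. Gabarap was 0.0196, 0.0130 and 0.0024 under the scalings above. Centred on chromosome medians, the called genes Atp6v0d1 (−0.0054) and Atp6v1b2 (−0.0678) reversed. So did the uncalled genes Atg7 (0.0540), Atg9a (−0.0347), Atg5 (−0.0147) and Gabarap (0.0525). Leaving aside Atp6v0d1 and Atp6v1b2, 22 genes shifted on centring by at least their SD within groups on the log2 scale, and 15 by less. The cause was not tested. Depth limits Mitf, whose counts stayed at 5 or fewer. With 1 stable line a group, the error bars hold no spread between lines.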
